A study of Mus musculus with 2 samples.

Results

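The genes of MHC class II antigen presentation were followed in single-cell transcriptomes of CD45+ cells of Lewis lung carcinoma (LLC) tumors. The set was chosen by gene symbol alone and held 10 of the 27998 genes of the count tables, and all 10 were found. They were H2-Aa, H2-Ab1, H2-Eb1, Cd74, H2-DMa, H2-DMb1, H2-DMb2, H2-Oa, H2-Ob and Ciita. LLC cells, a mouse lung carcinoma line, were grown under the skin of C57/BL6 mice given as 10 weeks old, and tumors were collected on day 14. One library came from control mir-21flox/flox mice, in which both miR-21 alleles are flanked by loxP sites. The other came from mir-21flox/flox; lysmCre mice, in which Cre under the lysozyme M promoter deletes the microRNA in cells that express this gene, mainly macrophages, monocytes and granulocytes. Cells of 3 mice were pooled for each library, so there was no replicate, no test and no p-value, and every interval below is a 95% interval for counting error only. Groups follow the library titles (wt, cko). The cell source description names the conditional knockout for the library titled wt, and each library is therefore named below by its title alone. Lyz2, the gene at the lysozyme M locus into which this Cre is inserted, was at 18588 CPM (UMIs per 1000000 UMIs) in the library labelled wt and 8756 in the library labelled cko over the myeloid gates described below. MiR-21 itself was not analysed here. One label also names a macrophage gate that includes surface MHC class II, while the design text names CD45+ cells alone. T and NK cells made up 204 cells of the library labelled wt and 238 of the library labelled cko.

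MHC class II molecules present peptides from engulfed material to CD4 T cells. An α and a β chain (H2-A or H2-E) assemble in the endoplasmic reticulum with the invariant chain Cd74, which blocks the peptide groove and directs the complex to endosomes. There proteases trim the invariant chain, the editor H2-M (H2-DMa with a β chain from H2-DMb1 or H2-DMb2) exchanges its last fragment for peptide, and H2-O (H2-Oa with H2-Ob) restrains that editor. Ciita, the class II transactivator, binds no DNA itself and is recruited by factors that sit on the X and Y boxes of these promoters. Dendritic cells and B cells carry high class II levels, and monocytes acquire class II as they differentiate or meet interferon-γ.

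Coordinates in the annotation of mm10 were looked up for 9 members, all but Cd74. Of these 9, 8 lay together on chromosome 17 between 34092340 and 34316674, inside the major histocompatibility complex. H2-Oa was at chr17:34092340-34095234, H2-DMa at chr17:34119541-34139101, H2-DMb2 at chr17:34143307-34151555, H2-DMb1 at chr17:34153072-34160230 and H2-Ob at chr17:34238903-34254414. H2-Ab1 was at chr17:34257689-34269419, H2-Aa at chr17:34282744-34287823 on the minus strand, and H2-Eb1 at chr17:34305867-34316674. Ciita was on chromosome 16 at chr16:10480059-10528418. H2-DMb1 and H2-DMb2 are neighbouring paralogs. Of the windows of 50 bases in the last 500 bases of H2-DMb1, 20.4% also occur in a transcript of H2-DMb2, and 0% of those of H2-DMb2 occur in a transcript of H2-DMb1. How the counting assigned reads that match both genes is not given in the sources used here, so the split between these genes is uncertain.

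Promoter windows are shown because the X and Y boxes are the sequence through which Ciita acts on these genes together. RefSeq promoters (GRCm38.p6) were matched for 7 members (8 promoters), and the 250 bases before each start were searched on both strands for an X core, CTAGNNAC, and a Y core, ATTGG. The 55-base windows below run 5′ to 3′ on the gene's strand and lie outside annotated exons. Capitals mark the X core and the Y core where they match.
H2-Aa, chr17:34287857-34287911, minus strand: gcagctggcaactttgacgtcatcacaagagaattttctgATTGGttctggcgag
H2-Eb1, chr17:34305768-34305822, plus strand: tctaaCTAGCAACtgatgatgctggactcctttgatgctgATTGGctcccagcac
H2-Ob, chr17:34238808-34238862, plus strand: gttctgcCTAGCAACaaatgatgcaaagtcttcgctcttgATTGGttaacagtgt
H2-DMb2, chr17:34145119-34145173, plus strand: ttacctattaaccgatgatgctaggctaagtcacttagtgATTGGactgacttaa
The Y core was present in 7 of the 8 promoters of these members, which covers all 7 members, and in 33.8% of all 32851 promoters. The X core was present in 3 of the 8 promoters, those of 3 members (H2-Eb1, H2-Ob and H2-DMb1), and in 8.88% of all promoters. In these 3 members the X core preceded the Y core by 25 to 28 bases, and 0.198% of all promoters held both in that order with 10 to 30 bases between them. The H2-DMb2 window lies in a stretch between exons of the annotated gene, since a longer transcript starts further upstream. A match is a description of letters and not a measured binding site.

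The libraries held 2449 and 2718 cells (wt first, here and below), with median depths of 8359 and 8247 UMIs per cell and 24492486 and 27163485 UMIs in all. Quality and doublet filters left 2397 and 2645 cells, and 5 barcodes occurred in both libraries. No member was used to sort cells. Cells were placed by marker UMIs into 10 gates, which took 1541 and 1566 cells. The dendritic gates were cDC1 (17 and 13 cells, Xcr1 at 281 and 276 CPM), mature DC (16 and 27 cells, Ccr7 at 2800 and 4454 CPM) and a gate led by Mgl2, Kmo and Clec10a (56 and 64 cells). The last was defined for Cd209a-type DC, but Cd209a was at 19.1 and 11.3 CPM against 565 and 335 CPM for Mgl2, and it is called the Mgl2 DC gate. Monocytes fell into a nonclassical gate (334 and 328 cells), an interferon-low classical gate (338 and 293 cells) and an interferon-high classical gate (106 and 62 cells). The nonclassical gate had Ace at 197 and 212 CPM but still carried Ly6c2, a classical monocyte marker, at 532 and 499 CPM. Transitional cells, with both Ly6c2 and C1q, numbered 210 and 157. C1q macrophages were divided into cells with Vcam1, Ccl8 or Folr2 (171 and 167), cells with Cd300e, Clec4b1 or Pparg (126 and 273) and the rest (167 and 182).

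Class II RNA was highest in the Mgl2 DC and cDC1 gates and lowest in the monocyte and mature DC gates. The 10 genes together made up 80560 CPM of the Mgl2 DC gate in the library labelled wt and 82589 CPM in the library labelled cko. The cDC1 gate followed with 67820 and 66800 CPM. Mature DC, which stop class II synthesis while they keep surface complexes, were at 23602 and 25287 CPM. That sum was carried by part of the 16 and 27 cells, of which 6 and 12 had at least 200 class II UMIs per 10000. The median cell had 90.1 and 164, and the 90th percentile was 689 and 622. Among monocytes the sum was 26177 and 20239 CPM in the nonclassical gate, 24250 and 18090 CPM in the interferon-low classical gate, and 31882 and 26069 CPM in the interferon-high classical gate. Transitional cells had 51997 and 44606 CPM, above every monocyte gate in both libraries. Vcam1 macrophages had 32045 and 40677 CPM, Cd300e macrophages 46164 and 41850 CPM, and the other C1q macrophages 58791 and 53621 CPM. The order of the 3 macrophage gates was the same in both libraries, but the Vcam1 and Cd300e gates lay close together in the library labelled cko.

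**Figure D1:**
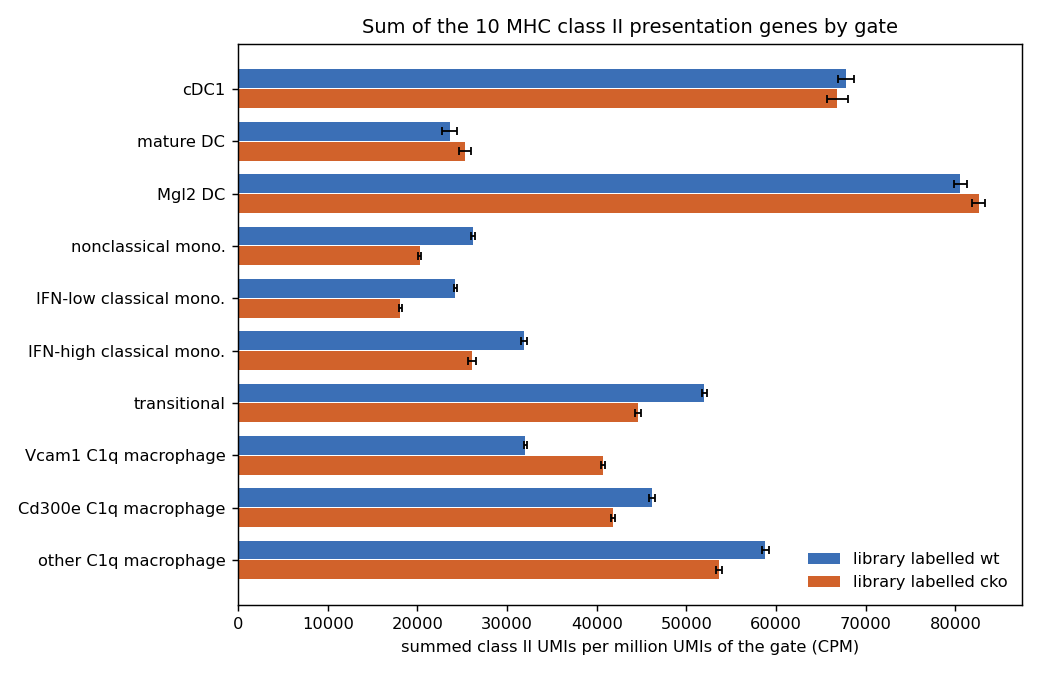
Summed UMIs of the 10 class II genes, in CPM, in each of the 10 gates, with bars for the library labelled wt (blue) and labelled cko (orange) and exact 95% Poisson intervals. The Mgl2 DC gate is highest in both libraries (80560 and 82589 CPM), and the Vcam1 macrophage gate (32045 and 40677 CPM) is the macrophage gate with the higher bar in the library labelled cko.

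T and NK cells, which lack class II synthesis in mice, served as the background of free RNA and misplaced cells. Their median cell had 9.29 and 8.68 class II UMIs per 10000 UMIs. Their summed level was 4552 and 2485 CPM, because 10 cells held 77.3% of the class II UMIs of that gate in the library labelled wt and 64.3% in the library labelled cko. The median cell of every myeloid gate was above the T and NK median in both libraries.

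H2-Aa and H2-Ab1 encode the α and β chains of H2-A, and H2-Eb1 the β chain of H2-E. H2-Ea-ps, looked up for the α chain of H2-E, was not in the count tables. H2-Eb1 RNA is therefore not read as assembled H2-E. H2-Aa ran from 3817 CPM in interferon-low classical monocytes to 13443 CPM in the Mgl2 DC gate of the library labelled wt, and from 2699 to 13944 CPM between these gates in the library labelled cko. H2-Ab1 was also highest in the Mgl2 DC gate (17769 and 18779 CPM), as was H2-Eb1 (10263 and 10436 CPM). The chains did not keep 1 ratio in mature DC, where H2-Ab1 had 77.1 and 64.3 UMIs per 100 H2-Aa UMIs. In the other 9 gates the same ratio lay between 125 and 144. Ratios of UMIs between genes depend on how well each 3′ end is captured, so only their differences between gates are read here.

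Cd74, the invariant chain, had 297114 UMIs over the 10 gates in the library labelled wt and 284714 in the library labelled cko. Its level was 35482 and 35357 CPM in the Mgl2 DC gate and 11670 and 8983 CPM in interferon-low classical monocytes. Relative to its partner chains, Cd74 was higher in monocytes than in cDC1 cells. Per 100 UMIs of H2-Aa plus H2-Ab1 there were 107 and 105 Cd74 UMIs in the cDC1 gate, 133 and 143 in interferon-low classical monocytes, and 146 and 150 in nonclassical monocytes. Plasmacytoid DC (19 and 20 cells, outside the 10 gates) had the highest ratio of the gates compared, 185 and 197.

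H2-DMa and H2-DMb1, of the H2-M editor, were lowest in mature DC and highest in the Mgl2 DC and cDC1 gates. H2-DMa, its α chain, was at 755 and 660 CPM in interferon-low classical monocytes and 1085 and 1061 CPM in the other C1q macrophages. H2-DMb1, a β chain of the editor, was at 579 and 427 CPM and 953 and 933 CPM in the same gates. Together with H2-DMb2, the editor had 15.4 and 17.5 UMIs per 100 H2-A UMIs in interferon-low classical monocytes and 9.17 and 10.0 in the other C1q macrophages. In mature DC, H2-DMa was at 270 and 216 CPM, the lowest of the 10 gates in both libraries. H2-DMb1 was lowest there as well, at 175 and 58.9 CPM (24 and 12 UMIs).

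H2-DMb2, the alternative editor β chain, was largely a dendritic transcript. It was at 492 and 562 CPM in the Mgl2 DC gate, 250 and 177 CPM in the cDC1 gate and 73.1 and 285 CPM in mature DC (10 and 58 UMIs), against 9.49 to 41.5 CPM in the 7 monocyte, transitional and macrophage gates of the library labelled wt and 11.9 to 36.8 CPM in those of the library labelled cko. Its share of H2-DMb UMIs was 29.9% and 28.5% in the Mgl2 DC gate and below 5% in every monocyte, transitional and macrophage gate of both libraries. After cells were thinned to 3000 UMIs, 48.2% and 64.1% of Mgl2 DC had an H2-DMb2 UMI (62.5% and 73.4% without thinning), against 0% and 1.26% of T and NK cells (3.43% and 1.68%). Median depths were 9619 and 9280 UMIs in Mgl2 DC and 6224 and 6739 UMIs in T and NK cells. The 0 of 204 thinned cells allows up to 1.79% of cells with a UMI at 3000 UMIs (exact binomial interval), a limit on detection at that depth and not on expression.

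H2-Oa and H2-Ob, the chains of the inhibitor H2-O, were similarly restricted. H2-Oa was at 291 and 309 CPM in the Mgl2 DC gate, 217 and 130 CPM in cDC1 cells and 198 and 183 CPM in plasmacytoid DC. In C1q macrophages pooled it was at 4.27 and 4.76 CPM (27 and 37 UMIs). T and NK cells, at 24.1 and 22.8 CPM, had more H2-Oa than any monocyte, transitional or macrophage gate of their library. H2-Ob followed cDC1 and Mgl2 DC (172 and 136 CPM, then 106 and 132 CPM), but plasmacytoid DC had 1 and 2 UMIs of it, at 8.99 and 15.9 CPM. After thinning, the share of cells with an H2-Oa UMI was 46.4% and 46.9% in Mgl2 DC (73.2% and 67.2% without thinning) and 6.37% and 9.66% in T and NK cells (13.2% and 14.3%). The thinned shares in the 3 macrophage gates were 0.585% to 3.59%, below the T and NK share. T and NK cells therefore do not serve as a background for H2-Oa, and no expression is read from the macrophage shares.

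Ciita was at 106 and 73.0 CPM in cDC1 cells and 90.2 and 110 CPM in the Mgl2 DC gate. In nonclassical monocytes it was at 30.2 and 19.9 CPM, in transitional cells at 48.7 and 39.3 CPM and in C1q macrophages at 29.7 and 28.1 CPM. Plasmacytoid DC, which are known to transcribe Ciita from another promoter than conventional dendritic cells, had 0 Ciita UMIs in both libraries while their class II sum was 20676 and 18552 CPM. A floor of 3 counts in that gate is 27.0 CPM in the library labelled wt and 23.9 CPM in the library labelled cko, which is at the level of monocytes, so the depth does not set this gate apart from them.

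**Figure D2:**
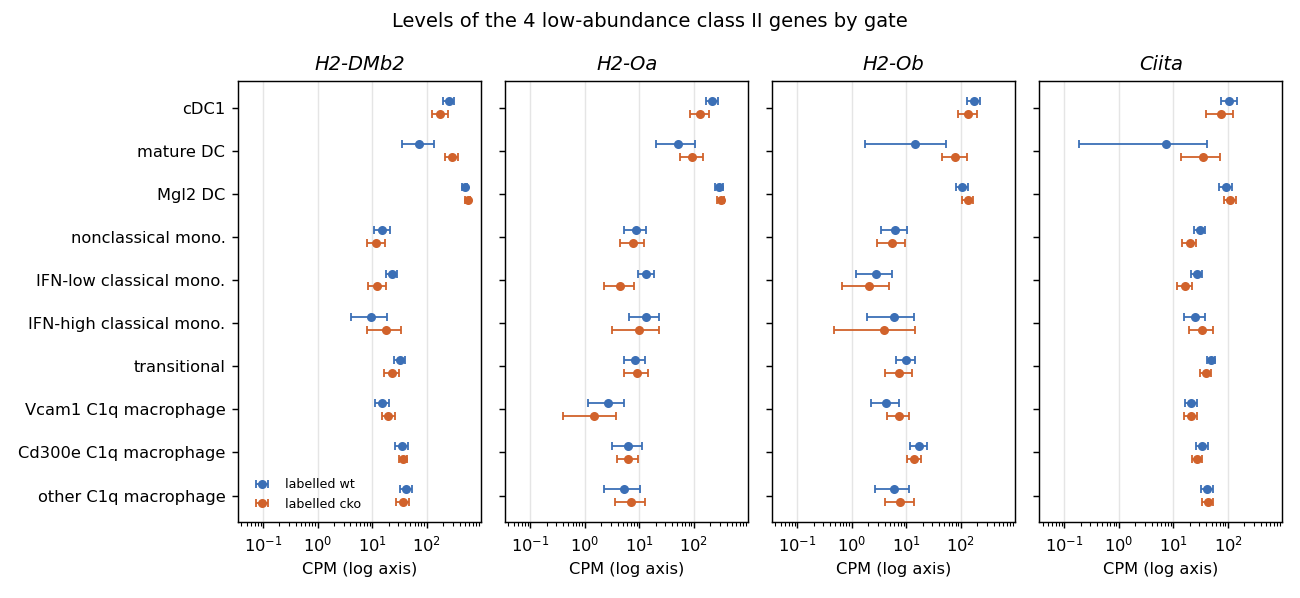
CPM on a log axis of H2-DMb2, H2-Oa, H2-Ob and Ciita in the 10 gates, with points for the library labelled wt (blue) and labelled cko (orange) and exact 95% Poisson intervals. H2-DMb2 and H2-Oa peak in the Mgl2 DC gate (492 and 562 CPM, and 291 and 309 CPM) and lie far lower in monocytes and macrophages, while Ciita spans a narrower range.

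Across all 10 gates pooled, the library labelled cko had slightly less class II RNA. The sum was 39345 CPM in the library labelled wt and 37475 CPM in the library labelled cko, a log2 ratio (cko over wt) of −0.07 with an interval of −0.08 to −0.07. H2-Aa was at 6305 and 5838 CPM (−0.11), H2-Ab1 at 8214 and 7796 CPM (−0.08), H2-Eb1 at 4664 and 4398 CPM (−0.08) and Cd74 at 18465 and 17830 CPM (−0.05). Ciita, at 35.5 and 30.3 CPM, had a log2 ratio of −0.23 (−0.41 to −0.05). H2-DMb2 and H2-Ob were higher, at 45.9 and 49.5 CPM and at 14.0 and 14.97 CPM, with intervals that include 0. Of the 10 members, 3 were lower by at least 0.1 on the log2 scale, and 18.9% of all 10221 genes that reached 50 UMIs in the libraries together were. The members' median was −0.08, against 0.04 for all those genes. Subtracting the summed T and NK level of each library as background, which rests on those few cells, turned the pooled log2 ratio to 0.01, while subtracting their median cell, a choice made with the values known, left it at −0.07.

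The small pooled difference was the balance of larger and opposite differences between gates. In classical monocytes pooled, the sum was 25968 and 19471 CPM (−0.42, interval −0.43 to −0.40), with all 9 members that had 50 UMIs lower by at least 0.1 and 29.5% of all genes tested. H2-Aa was at 4092 and 2884 CPM there (−0.50), H2-Eb1 at 2571 and 1791 CPM (−0.52), Cd74 at 12506 and 9718 CPM (−0.36) and Ciita at 26.2 and 19.04 CPM (−0.46, interval −0.96 to 0.03). H2-DMa, at 794 and 697 CPM (−0.19), differed least of the 9, and H2-Oa, with 50 and 16 UMIs, differed most (−1.30, interval −2.21 to −0.46). The members' median was −0.46, against 0.02 for all genes tested. In nonclassical monocytes the sum had a log2 ratio of −0.37, and all 8 members with 50 UMIs were lower by at least 0.1 (26.7% of all genes tested). When the nonclassical gate required 6 marker UMIs, which was tried once the values were known, this ratio was −0.17. Transitional cells had a log2 ratio of −0.22, with all 8 members that had 50 UMIs lower by at least 0.1 (31% of all genes tested). It was −0.11 with a C1q limit of 40 per 10000 and −0.33 with a limit of 4 Ly6c2 UMIs.

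Vcam1 macrophages went the other way. Their sum was 32045 CPM in the library labelled wt and 40677 CPM in the library labelled cko (0.34, interval 0.33 to 0.36), and 7 of 8 members with 50 UMIs were higher by at least 0.1, against 38.4% of all genes tested. H2-Aa was at 4963 and 6312 CPM (0.35), Cd74 at 15339 and 19379 CPM (0.34), H2-DMa at 646 and 804 CPM (0.32) and H2-DMb1 at 652 and 793 CPM (0.28). Ciita was the exception, at 21.4 and 20.6 CPM (−0.05, interval −0.60 to 0.48), a range that holds both a rise of the size seen in the other members and none. In Cd300e macrophages the log2 ratio of the sum was −0.14, with 7 of 9 members lower by at least 0.1 (27.1% of all genes tested). In the other C1q macrophages it was −0.13, with 4 of 8 members lower (29.6% of all genes tested). Pooling the 3 macrophage gates left a sum of 42414 and 43786 CPM (0.05). Of the 10 members 3 were higher by at least 0.1 (39.9% of all genes tested) and 0 were lower by that much (23.8%). This pooled macrophage value was −0.02 as a mean over cells.

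Dendritic cells showed no difference of that size. Their pooled sum was 69063 and 68119 CPM (−0.02, interval −0.0349 to −0.00479), and 0 of 10 members were lower by at least 0.1, against 30.9% of all genes tested. The sign turned to 0.01 with a C1q limit of 40 per 10000 and to 0.02 when the T and NK level was subtracted. In the Mgl2 DC gate H2-DMb1 was at 1155 and 1411 CPM (0.29, interval 0.14 to 0.44). In cDC1 cells H2-Oa was at 217 and 130 CPM (72 and 25 UMIs), with a log2 ratio of −0.74 (−1.46 to −0.06). The mature DC gate had 10 and 58 UMIs of H2-DMb2 and rests on 16 and 27 cells, of which 37.5% and 29.6% had such a UMI. Lyz2, whose promoter drives the Cre, was at 1107 and 579 CPM in the cDC1 gate, 8097 and 2549 CPM in the Mgl2 DC gate and 431 and 721 CPM in mature DC.

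**Figure D3:**
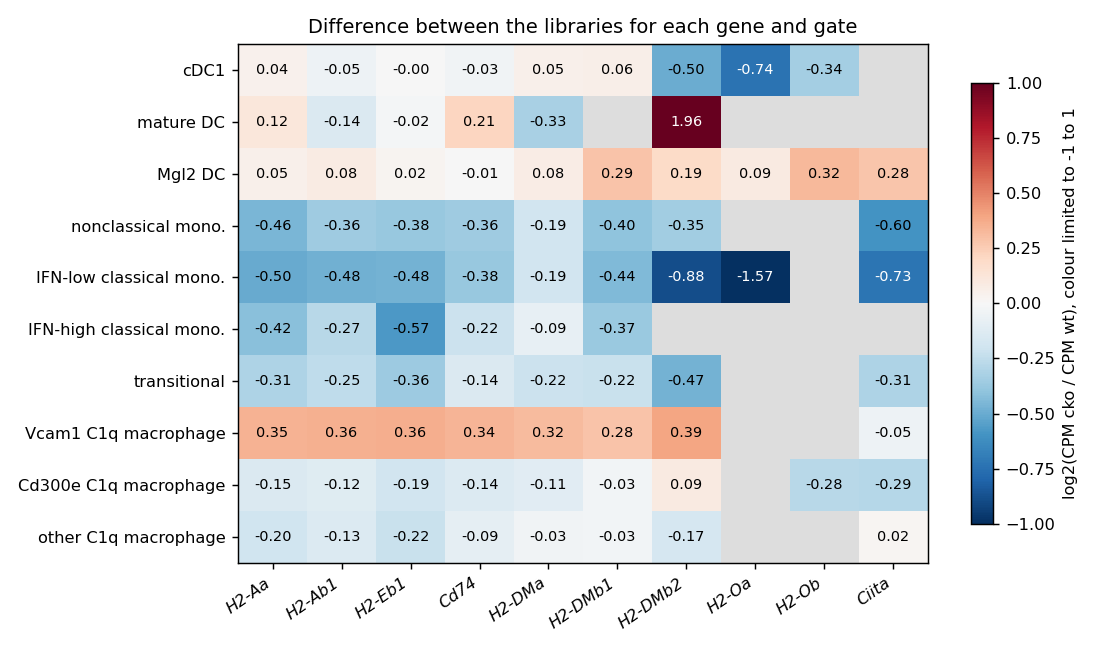
Log2 ratio of CPM, cko over wt, for each of the 10 genes (columns) in each of the 10 gates (rows), with red for higher and blue for lower in the library labelled cko and grey for genes under 50 UMIs over both libraries. Monocyte and transitional rows are blue across nearly all genes, the Vcam1 macrophage row is red (0.28 to 0.39) except for Ciita (−0.05), and the Mgl2 DC row lies between −0.01 and 0.32.

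The pooled difference was then split exactly into a within-gate part, from different CPM in the same gate, and a mix part, from different shares of UMIs among gates. The sum differed by −1870 CPM, which is −4.75% of the level in the library labelled wt. The within-gate part was −2754 CPM (−7.00%) and the mix part was 884 CPM (2.25%). The interval of the within-gate part was −2892 to −2616 CPM. That of the mix part, which counts cells per gate, was −165 to 1934 CPM and includes 0, so its sign was not set by these cell numbers. With the shares of either library as weights the within-gate part was −2745 and −2763 CPM. With 12 unsupervised clusters made without the members in place of the gates, the within-gate part was −2122 CPM and the mix part 252 CPM (interval −1095 to 1598 CPM). As means over cells the parts were −4313 and 1447 CPM. After the summed T and NK level was subtracted the within-gate part was −687 CPM.

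Within gates, Vcam1 macrophages added 1550 CPM. The interferon-low classical monocytes contributed −1025 CPM, transitional cells −1015 CPM, nonclassical monocytes −891 CPM, Cd300e macrophages −710 CPM, the other C1q macrophages −495 CPM and interferon-high classical monocytes −245 CPM. All 3 dendritic gates together held few UMIs and contributed between −16.6 and 75.8 CPM each. In the mix, Cd300e macrophages rose from 11.0% to 21.9% of UMIs, and since they lie above the pooled level this added 614 CPM. Interferon-low classical monocytes, which lie below it, fell from 18.0% to 15.2% of UMIs and added 483 CPM. Fewer transitional cells (15.7% to 11.8% of UMIs) contributed −385 CPM. A lower cDC1 share of UMIs (2.06% to 1.20%) contributed −248 CPM, but this gate held only 17 and 13 cells. Its intervals by cells overlap (0.414% to 1.13% and 0.262% to 0.839% of the cells kept). By cells, Cd300e macrophages were 5.26% (interval 4.40% to 6.23%) and 10.3% (9.19% to 11.5%) of the cells kept, and the difference between single pools of 3 mice cannot be told apart from the spread between pools.

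**Figure D4:**
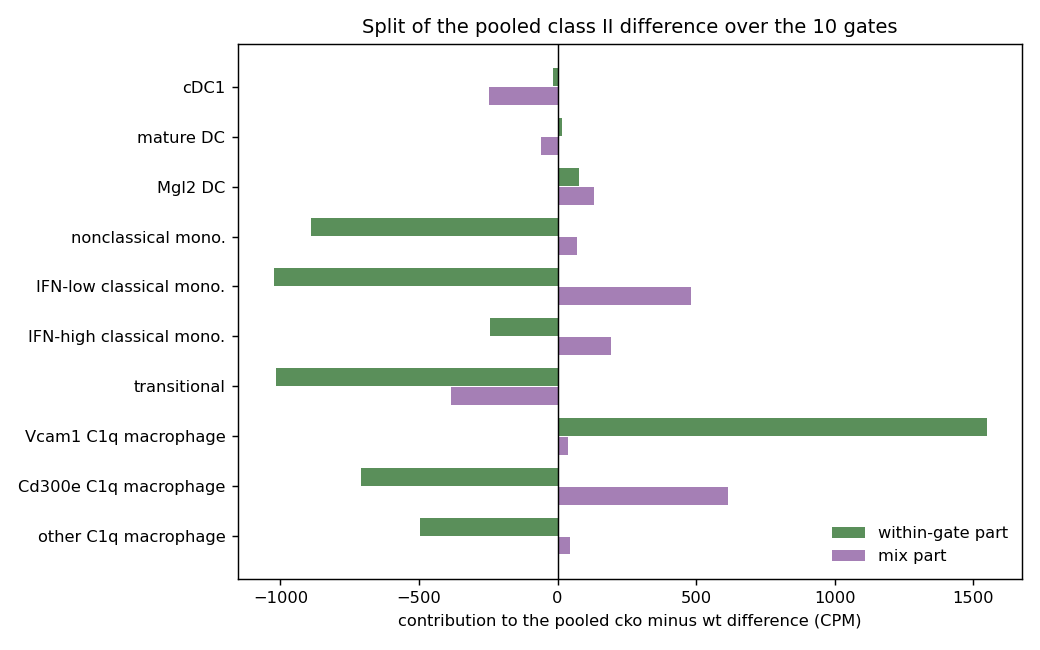
Contribution of each of the 10 gates to the pooled difference in the class II sum, cko minus wt in CPM, with green bars for the within-gate part and purple bars for the mix part. Vcam1 macrophages add 1550 CPM within the gate, interferon-low classical monocytes and transitional cells contribute −1025 and −1015 CPM, and the tallest mix bar is that of Cd300e macrophages (614 CPM).

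Gene by gene, the within-gate part was negative for 8 of 10 members. It was −591 CPM for H2-Aa (−9.38% of its level in the library labelled wt), −575 CPM for H2-Ab1 (−7.00%), −457 CPM for H2-Eb1 (−9.80%) and −1055 CPM for Cd74 (−5.71%). The mix part was positive for each of these, from 1.90% for H2-Ab1 to 4.09% for H2-Eb1. H2-DMa had a within-gate part of −3.70% and a mix part of −1.29%. For Ciita nearly the whole difference of −14.6% was within gates (−13.6%). H2-DMb2 and H2-Ob had positive within-gate parts, 2.95% and 4.80%, to which the Mgl2 DC gate added most (2.60 and 0.983 CPM). These 2 parts depended on the weights. They were 0.358% and 3.21% with the shares of the library labelled wt, and 5.53% and 6.38% with those of the library labelled cko.

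Class II was widely spread among the cells of a monocyte gate. In interferon-low classical monocytes the 10th and 90th percentiles were 10.5 and 686 class II UMIs per 10000 in the library labelled wt and 7.92 and 652 in the library labelled cko. Its lowest cells thus lay at the T and NK background and its highest cells near the median of cDC1 cells (668 and 692). Cells were therefore also divided at 100 class II UMIs per 10000, a limit set after earlier results were known. In interferon-low classical monocytes 50.9% (interval 45.4% to 56.3%) and 35.8% (30.3% to 41.6%) of cells were class II-high by this limit. In nonclassical monocytes the shares were 61.7% (56.2% to 66.9%) and 46.3% (40.8% to 51.9%), and in interferon-high classical monocytes 70.8% (61.1% to 79.2%) and 62.9% (49.7% to 74.8%). Over all monocytes they were 58.2% and 43.3%, a difference of −14.9 percentage points, which was −16.4 at a limit of 50 and −14.5 at a limit of 200.

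The limit lies on class II itself, so a cell that differs in level can cross it, and levels among the cells above it are partly set by the limit. Among class II-high cells, the levels differed by less than 0.1 on the log2 scale in the 3 monocyte gates. High cells of the interferon-low classical gate had 46216 and 46359 CPM (log2 ratio 0.00, interval −0.01 to 0.02), and those of the nonclassical gate 39475 and 39024 CPM (−0.02, interval −0.03 to 0.00). Those of the interferon-high classical gate had 42940 and 41224 CPM (−0.06, interval −0.09 to −0.03), with −1746 of a difference of −5813 CPM in the level. Of the difference of −6238 CPM in all monocytes, −5574 CPM came with the share of UMIs in high cells and −665 CPM with the level in high and in low cells. Vcam1 macrophages differed in both respects. Their high share was 73.7% and 83.2%, with intervals that overlap (66.4% to 80.1% and 76.7% to 88.6%), and their high cells were at 41126 and 48605 CPM (0.24). The level carried 5732 CPM of their difference of 8632 CPM. Cd300e macrophages had high shares of 95.2% and 86.8% with high cells at nearly the same level (−0.01). In the other C1q macrophages the shares were 94.0% and 92.3%, and the level in high cells had a log2 ratio of −0.12. Cells of a library are not replicates, so these shares describe 2 pools.

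**Figure D5:**
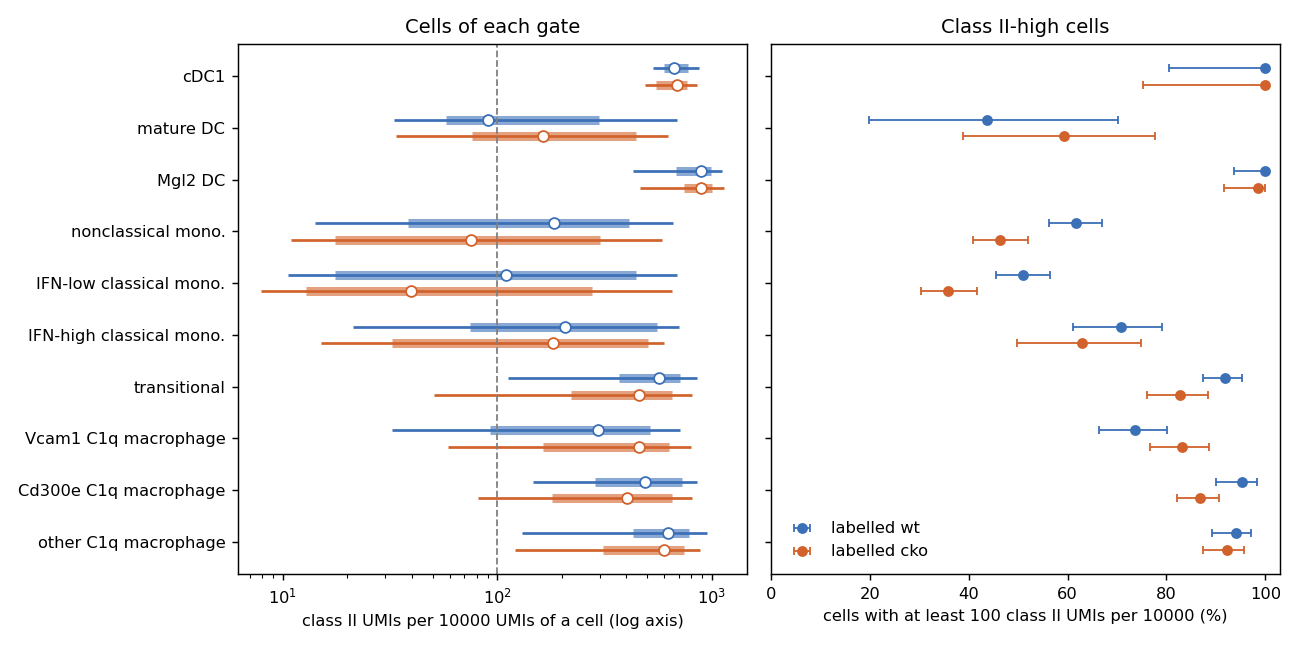
Left, class II UMIs per 10000 UMIs of a cell (log axis) in each gate, with the median (circle), the middle 50% of cells (thick bar) and the 10th to 90th percentiles (thin line), and a dashed line at 100. Right, the percentage of cells at or above 100 with exact 95% intervals. Monocyte gates span both sides of the line and have fewer class II-high cells in the library labelled cko (35.8% against 50.9% of interferon-low classical monocytes).

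Cells that were high for 1 chain were high for the others. Within 6 monocyte, transitional and macrophage gates, the Pearson correlation across cells between any pair of H2-Aa, H2-Ab1, H2-Eb1 and Cd74 lay between 0.77 and 0.96. The mean correlation with these 4 genes was 0.43 to 0.71 for H2-DMa, 0.50 to 0.79 for H2-DMb1 and 0.17 to 0.43 for Ciita. Cells of 1 library share its free RNA and differ in depth, so these are descriptions only. The class II share of a cell had correlations of −0.21 to 0.11 with its log depth in these gates.

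Over the 20 combinations of gate and library, the mean log2 level of H2-Aa, H2-Ab1, H2-Eb1 and Cd74 was compared with 5635 genes that had at least 500 UMIs. Ciita had a Pearson correlation of 0.81 with it, H2-DMb1 0.67, H2-DMa 0.66 and H2-Oa 0.50. The non-member genes most like it were Plekho1 (0.86), Lyar (0.85), G3bp1 (0.84), Klrb1b (0.83), Ccdc102a (0.83), Ppie (0.83), Apex1 (0.81), Gpr171 (0.81), Ruvbl1 (0.80) and Slc35a4 (0.80). The 20 points share 2 libraries and their pooled cells, and the values are given without a test.

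The other genes of the pathway varied in direction between gates. Of 27 listed genes with at least 50 UMIs, 4 were lower and 6 higher by at least 0.1 over all gates, with a median of 0.01, where 18.9% of all genes tested were lower and 36.6% higher by that much. Among the proteases that trim the invariant chain or make peptides, Ctsl was at 532 and 433 CPM (−0.30, interval −0.34 to −0.25), Ctsb at 3125 and 3507 CPM (0.17) and Ctss at 3352 and 3358 CPM (0.00). Ifngr1, a chain of the interferon-γ receptor, was at 541 and 617 CPM (0.19). Of the factors that bind the X and Y boxes, Rfx5 was at 5.59 and 4.88 CPM (−0.20, interval −0.65 to 0.26) and Nfyb at 23.8 and 27.8 CPM (0.22, interval 0.02 to 0.43). In classical monocytes 6 of 23 such genes were lower and 6 higher, with a median of −0.02. Of all genes tested there, 29.5% were lower and 34.6% higher, so nothing particular to these genes is read from it. Ifngr1 was at 621 and 756 CPM (0.28) in classical monocytes. In nonclassical monocytes 2 of 21 were lower and 10 higher, against 26.7% and 37.6% of all genes tested. In transitional cells 2 of 20 were lower and 8 higher (31% and 35.4% of all genes tested), and in dendritic cells 3 of 16 and 8 (30.9% and 40.7%). In C1q macrophages 7 of 26 were lower and 6 higher (23.8% and 39.9% of all genes tested). S100a8, which neutrophils and classical monocytes transcribe, was at 191 and 415 CPM in nonclassical monocytes and 759 and 1083 CPM in interferon-low classical monocytes, against 232 and 183 CPM in T and NK cells, and its part in the class II values was not tested.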

How the data were processed

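CD45+ cells of LLC tumors were measured with 10x Genomics 3′ version 2 chemistry, with 1 library per genotype. The authors deposited raw UMI counts per gene and cell for called cells. Per the submitters' processing notes, Cell Ranger, Seurat and the mm10 build were used, and versions are not given in the sources used here.

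The members, gates and gene lists were chosen with earlier results of these data known. All 10 members are reported in every gate or by their range, and pathway genes by counts with up to 3 furthest from 0 in each direction, with Ctss added after its values were seen. One gene of that list is not reported here by name. Cells were kept if they had 200 or more genes and no more than 10% mitochondrial UMIs. Scrublet (scanpy 1.11.5) marked 2 and 5 cells by itself, too few to have worked, so the 48 and 59 highest scores were removed at a loading rate of 0.8% per 1000 cells. Depth ranged from 3184 to 44332 and from 3187 to 159109 UMIs per cell. Gates needed 3 UMIs over 2 genes of a marker list, C1q macrophages 20 C1q UMIs per 10000, classical and transitional cells 2 Ly6c2 UMIs, and the interferon split 10 per 10000. Cells in B, T/NK, plasmacytoid, granulocytic, mast, tumor, mixed or no gates stayed outside the 10 gates. UMIs were summed per gate and library as CPM. Log2 ratios have exact conditional binomial intervals, levels exact Poisson intervals and shares Clopper-Pearson intervals. Intervals of the split are normal approximations, from UMI counts for the within-gate part and from cell numbers for the mix part, so their widths are not comparable. The interval method was tested on simulated independent Poisson counts per gene. These hold no spread between cells, so the test does not show that the intervals cover that spread. Alternatives changed the gate limits, doublet step, weighting, scaling and background subtraction. edgeR 4.0.16 (R 4.3.3) gave TMM factors only. Python 3.11.15, scipy 1.17.1, pandas 2.3.3, scikit-learn 1.9.0, numpy 2.4.6 and matplotlib 3.10.9 were used.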

Additional observations from a re-analysis of the deposited data

Results flagged for a closer look

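Among the 10 gates, 3 had a class II sum that was higher in the library labelled cko while the pooled value was lower, with counting intervals that exclude 0. These were Vcam1/Ccl8/Folr2 C1q macrophages with a log2 ratio of 0.34, mature DC with 0.10 and Mgl2 DC with 0.0359. With 1 library per group the difference from the gates that were lower was not tested. Vcam1 macrophages remained higher under 13 of 13 alternatives (0.29 to 0.47). Median depth in that gate was 17125 UMIs per cell in the library labelled wt and 14719 in the library labelled cko, and its part in the result was not tested. The mature DC value rests on 16 and 27 cells, and its counting interval does not cover the spread between them. As a mean over cells, on the per-cell scale used above, mature DC had 251 and 252 class II UMIs. The difference in this gate was therefore nearly absent when cells were weighted equally. The means of Vcam1 macrophages (328 and 439) and of Mgl2 DC (817 and 836) were still higher in the library labelled cko.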

How the results depend on the processing

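The within-gate part was negative in 17 of 17 alternatives. The mix part lay between 252 and 1447 CPM, and its counting interval excluded 0, among the 17 alternatives, only as a mean over cells (307 to 2587 CPM) and with granulocytic, mixed and ungated cells added (113 to 1657 CPM). Subtracting the T and NK level cannot change it. Vcam1 macrophages were higher in 13 of 13. Subtracting the summed T and NK level gave 0.00813 for the pooled sum and 0.00794 for the median of the members, both against the direction of the values reported. It gave −687 CPM for the within-gate part, 0.13 for C1q macrophages, −0.17 for transitional cells, −0.33 for classical monocytes and 0.0249 for dendritic cells, the last a turn of sign. With a mean over cells the pooled sum was −0.11, the within-gate part −4313 CPM, C1q macrophages −0.0232 (a turn of sign), transitional cells −0.26, classical monocytes −0.44 and dendritic cells −0.0533. TMM scaling gave −0.12 for the pooled sum, −0.12 for the median of the members, −3941 CPM within gates, 0.00594 for C1q macrophages, −0.25 for transitional cells, −0.45 for classical monocytes and −0.0693 for dendritic cells. Median-of-ratios size factors gave −0.11, −3662 CPM within gates, 0.00506, −0.25, −0.44 and −0.0596 for the same sums. A limit of 4 Ly6c2 UMIs gave −0.0641 pooled, −2522 CPM within gates, 0.0178 for C1q macrophages and −0.33 for transitional cells. A C1q limit of 40 per 10000 gave −2581 CPM within gates, −0.11 for transitional cells, −0.48 for classical monocytes and 0.0137 for dendritic cells (a turn of sign), and a limit of 10 gave −0.24 for transitional cells. Gates on thinned cells gave −0.0831 pooled, −0.51 for classical monocytes and −0.0378 for dendritic cells. Without doublet removal the pooled sum was −0.0627 and classical monocytes −0.39. Without the top class II cell of each gate, C1q macrophages were at 0.0544, transitional cells at −0.24 and classical monocytes at −0.44. The k-means clusters gave −2122 CPM within. Chosen after seeing the data, the stricter granulocytic gate gave −0.083 pooled, −3032 CPM within gates, −0.21 for transitional cells and −0.48 for classical monocytes. The stricter nonclassical gate gave −0.0617, −2520 CPM and −0.46 for classical monocytes, and adding granulocytic, mixed and ungated cells gave −0.0929 and −3322 CPM. The cause of these shifts was not tested. No paired analysis was possible because each group was 1 library. Counting intervals are narrow for the sum and wide for Ciita, H2-Oa and H2-Ob, and none covers the spread between mice.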

Other observations

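The granulocytic gate (245 and 353 cells) was left out of the 10 gates, but many of its cells resembled monocytes. Besides Retnlg at 1033 and 2810 CPM and S100a8 at 7819 and 14764 CPM, it carried Ly6c2 at 954 and 991 CPM and Csf1r at 428 and 378 CPM. Its class II sum was 29820 and 26069 CPM (−0.19, interval −0.21 to −0.18), and 55.5% and 43.9% of its cells were class II-high. A stricter gate with 10 UMIs and under 2 Ly6c2 UMIs kept 55 and 84 cells and raised the cells in the 10 gates to 1771 and 1931. Ungated cells (284 and 268) had a sum of 39735 and 35717 CPM, and cells of mixed lineage (93 and 183) had 49620 and 43132 CPM. All 3 sets were lower in the library labelled cko.

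The B gate held 4 and 3 cells. It had H2-DMb2 at 418 and 1056 CPM and H2-Ob at 131 and 198 CPM, from 32 and 32 UMIs and from 10 and 6 UMIs.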
